A study of Mus musculus with 4 samples.

Results

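The mitochondrial genome transcripts described here are all genes whose symbol begins with mt- in the deposited tables. They were selected by symbol and not by their values, although earlier results of these data were known. They are 37 of 37310 genes, and they comprise 13 messenger RNAs (mRNAs), 2 ribosomal RNAs (rRNAs) and 22 transfer RNAs (tRNAs). The cells were natural killer (NK) cells, lymphocytes of innate immunity, taken from the bone marrow of 6 to 8 week old mice of the strain C57BL/6. They were sorted by flow cytometry as CD3e-NK1.1+CD49b+ into Trizol, and libraries were made by Smart-seq2, which amplifies cDNA primed on poly(A) tails. The study compared littermate controls, labelled Ctrl with no allele given, with mice of the genotype Gabpb1l-/-Gabpb2-/- (dKO), which lack Gabpb2 and the long form of Gabpb1. Each group held 2 biological replicates, named Ctrl 1, Ctrl 2, dKO 1 and dKO 2 below. Whether a replicate is 1 mouse or a pool of mice is not given in the sources used here, and the labels tie no promoter or Cre to the alleles.

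Mammalian mitochondrial DNA is a small circle that is transcribed from both strands into long precursors. The tRNAs lie between most of the longer genes, and their excision releases the mRNAs and rRNAs, most of which then receive a short poly(A) tail. The mRNAs encode membrane subunits of respiratory complexes I, III and IV and of ATP synthase (complex V), while all other subunits, the polymerase and the processing enzymes come from nuclear genes. GABP, the transcription factor whose β subunits are deleted in dKO, is also known as nuclear respiratory factor 2 and binds promoters of many of those nuclear genes.

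All 37 transcript identifiers and versions matched the GENCODE M21 annotation, and positions below are on chromosome M of GRCm38. This is not the build of the deposited counts, which the submitters' processing notes give as mm9. The 37 genes are packed with 36 boundaries between neighbours, and at 9 of these the annotated genes overlap. At 4 boundaries 2 mRNAs meet with no tRNA between them: mt-Atp8 with mt-Atp6, mt-Atp6 with mt-Co3, mt-Nd4l with mt-Nd4, and mt-Nd5 with mt-Nd6. The overlap of mt-Atp8 with mt-Atp6 is the longest, at 43 bases. It is shown because both genes differed between the deposited kinds of count, as described below. In the following sequences from the GENCODE M21 transcripts, capitals mark the overlap at the end of mt-Atp8 (bases 105 to 204) and at the start of mt-Atp6 (bases 1 to 100).
mt-Atp8: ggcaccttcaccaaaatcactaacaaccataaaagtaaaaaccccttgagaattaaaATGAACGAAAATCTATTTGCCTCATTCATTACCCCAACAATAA
mt-Atp6: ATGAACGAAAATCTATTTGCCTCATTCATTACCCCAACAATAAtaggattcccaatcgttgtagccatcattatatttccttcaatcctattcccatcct
The genes mt-Nd5 and mt-Nd6 are encoded on opposite strands and meet tail to tail, so their last 14 bases, in capitals, are each other's reverse complement.
mt-Nd5: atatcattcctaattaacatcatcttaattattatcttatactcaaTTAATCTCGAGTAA
mt-Nd6: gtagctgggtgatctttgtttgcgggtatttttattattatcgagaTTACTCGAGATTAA

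Copies of mitochondrial DNA inserted into nuclear chromosomes resemble the members closely, and reads from such stretches can be given to either locus. In GENCODE M21, 11 of the 13 mRNAs had a nuclear transcript with at least 85% identity over at least 100 bases, and 7 had 1 of at least 99%. The 7 are mt-Co1, mt-Co2, mt-Atp6, mt-Co3, mt-Nd3, mt-Nd4l and mt-Nd4, whose copies lie between bases 24611535 and 24616197 of chromosome 1. These matches cover 31.3% of mt-Co1 and 63.6% of mt-Nd4, and almost the whole length of the others. The copy of mt-Nd4l (294 aligned bases of 297) is Gm10222, with 0 mismatches. Its first 120 bases are shown for both because the deposited counts of the pair differed by the method of counting.
mt-Nd4l: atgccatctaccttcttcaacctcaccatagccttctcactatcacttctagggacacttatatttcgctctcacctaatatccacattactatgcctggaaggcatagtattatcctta
Gm10222: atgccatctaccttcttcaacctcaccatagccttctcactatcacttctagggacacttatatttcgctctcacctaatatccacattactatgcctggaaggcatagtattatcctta
A copy of mt-Co1 over its whole length, Gm13340 on chromosome 2, differs at 37 of 1545 bases, and a copy of mt-Cytb, Gm11410 on chromosome 4, at 81 of 1142 aligned bases. The first 180 aligned bases of these pairs are shown with mismatches in capitals, 3 for mt-Co1 and 12 for mt-Cytb. A read that covers no capital matches both loci equally.
mt-Co1: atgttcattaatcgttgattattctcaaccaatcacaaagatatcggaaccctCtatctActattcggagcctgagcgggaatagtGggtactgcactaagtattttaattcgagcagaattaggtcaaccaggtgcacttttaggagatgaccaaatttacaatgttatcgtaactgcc
Gm13340: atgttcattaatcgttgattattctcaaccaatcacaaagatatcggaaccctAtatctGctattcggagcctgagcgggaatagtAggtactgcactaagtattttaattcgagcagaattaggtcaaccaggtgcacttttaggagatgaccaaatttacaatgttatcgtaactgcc
mt-Cytb: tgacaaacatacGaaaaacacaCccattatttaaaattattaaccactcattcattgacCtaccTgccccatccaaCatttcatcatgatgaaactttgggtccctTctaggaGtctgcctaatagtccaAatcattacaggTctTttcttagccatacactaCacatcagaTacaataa
Gm11410: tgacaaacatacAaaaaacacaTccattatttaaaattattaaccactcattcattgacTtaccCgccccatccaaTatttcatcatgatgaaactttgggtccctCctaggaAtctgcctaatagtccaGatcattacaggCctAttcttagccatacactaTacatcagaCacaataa
Neither mt-Nd1 nor mt-Atp8 had such a copy among the annotated nuclear transcripts.

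The libraries held 30233870 to 34724516 whole-number gene counts, with 15921 to 19450 genes detected. Counts of Gabpb2 were 1244 and 1009 in Ctrl and 85 and 86 in dKO, thus low in both libraries labelled dKO (log2 fold change -3.61, edgeR adjusted p = 0.00126). Gabpb1, of which the genotype lacks the long form, was at 57.1 and 52.0 CPM in Ctrl against 81.2 and 79.4 in dKO (log2 fold change 0.56, edgeR adjusted p = 0.273), and counts per gene cannot show the loss of 1 form. The X-linked RNA Xist had 6066 and 6430 counts in Ctrl and 2 and 9 in dKO, while Y-linked Ddx3y had 0 and 0 in Ctrl and 8933 and 6757 in dKO. Genotype and sex therefore cannot be told apart in any comparison of the groups. The summed level of 9 NK markers was 13898, 13854, 10989 and 11176 CPM (counts relative to the TMM-scaled library total) in the order Ctrl 1, Ctrl 2, dKO 1, dKO 2, which is the order of all values given per library. The summed level of 7 T cell markers was 194, 208, 45.7 and 72.3 CPM, and 2 of the 7, Cd3e and Trac, fell in dKO by the same test, which called 0.611% of all genes in either direction. DESeq2 called 4 of the 7 lower (2.86% of all genes called) and limma-voom 3 (0.885%). Among other tested markers, DESeq2 called 1 of 9 NK, 1 of 7 B lineage, 2 of 10 neutrophil and 1 of 7 monocyte markers lower. Limma-voom called 1 of these monocyte markers lower, and edgeR called none of these other markers. Neutrophil markers summed to 2144, 2720.3, 1322 and 2163 CPM, erythroid markers to 404, 585, 296 and 541 CPM and monocyte markers to 3615, 3905, 3752 and 4369 CPM. B lineage markers summed to 97.3, 209, 90.8 and 121 CPM, with Ebf1 at 0 in all 4 libraries.

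By whole-number counts, mitochondrial mRNA took up about 1% of all gene counts in both groups. Its share differed far more between the dKO replicates than between the groups. Its share was 0.941% and 0.995% in Ctrl and 0.647% and 1.37% in dKO, replicate 1 before replicate 2. The dKO libraries thus lay on either side of both Ctrl libraries. The group means were 0.968 ± 0.0383% (SD, n = 2) in Ctrl and 1.01 ± 0.512% (SD, n = 2) in dKO, a difference of 0.0414 percentage points. An exact two-sided permutation test gave p = 1, and 2 libraries against 2 cannot give a p below 0.333. Without dKO 2 the difference was -0.321 percentage points. In bulk samples, fewer cells of a type and less RNA per cell cannot be told apart.

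Mitochondrial rRNA was less abundant than mitochondrial mRNA in these poly(A)-primed libraries and followed the same order within dKO. Its share was 0.285% and 0.197% in Ctrl and 0.122% and 0.398% in dKO. Here too dKO 1 was the lowest and dKO 2 the highest of the 4 libraries. Means were 0.241 ± 0.0621% in Ctrl and 0.260 ± 0.195% in dKO (SD, n = 2 each), with a difference of 0.0192 percentage points (exact two-sided permutation p = 1). That difference was -0.0247 without Ctrl 2 and -0.119 without dKO 2. The tRNAs gave 3, 0, 0 and 1 counts in all, every one of them from mt-Tp. At these depths counting error is small for mRNA and rRNA, since no exact binomial 95% interval of a share was wider than ± 0.0047 percentage points. Such intervals cover counting error only.

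**Figure D1:**
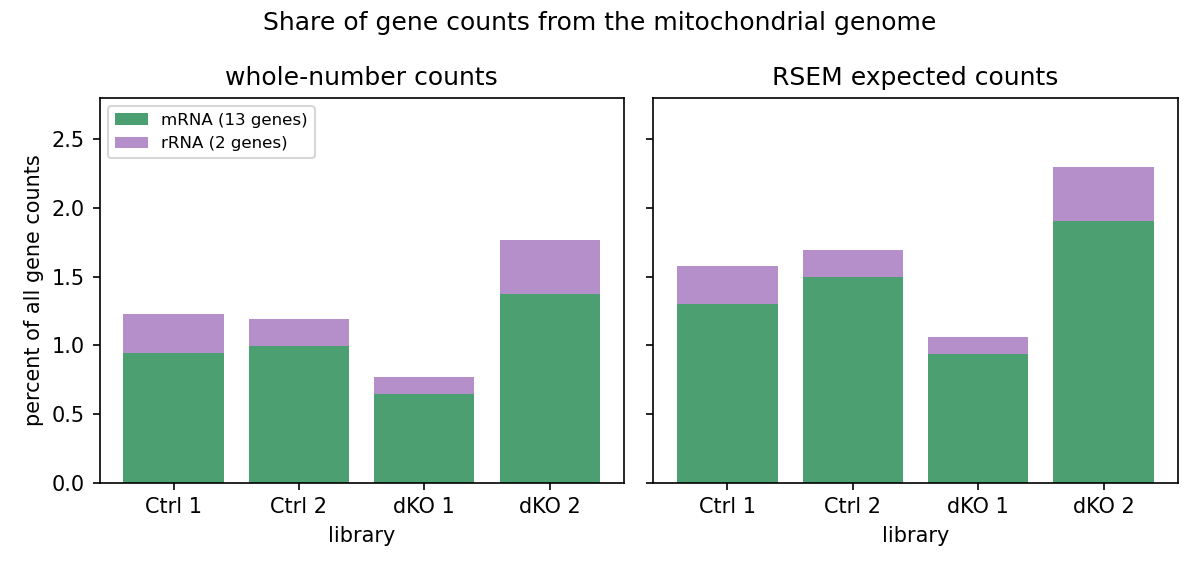
Bars give the percentage of all gene counts (y axis) from the 13 mitochondrial mRNAs and the 2 rRNAs in each library (x axis), from whole-number counts on the left and RSEM expected counts on the right. In both panels dKO 1 is the lowest and dKO 2 the highest library, with mRNA at 0.647% and 1.37% by whole-number counts.

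None of the mitochondrial genes that could be tested differed between dKO and Ctrl by the test across all genes. The filter on low counts kept 14 of the 37 members, namely 12 mRNAs and both rRNAs, and left out mt-Nd4l and the 22 tRNAs. Of these 14, edgeR's quasi-likelihood test called 0 at an adjusted p under 0.05, against 0.611% of the 13904 genes tested. DESeq2 and limma-voom also called 0, against 2.86% and 0.885%. At an unadjusted p under 0.05, 0 of the 14 passed, against 10.6% of all genes. Log2 fold changes were above 0 for 7 members and below 0 for 7, with a median of 0.00 beside 0.01 over all genes. The standard errors (SEs) ran from 0.24 to 0.73 with a median of 0.34, while the median over all genes was 0.27. Groups overlapped for all 14 members, whereas among all genes 21.7% were higher in both dKO libraries and 19.9% lower. Leaving out 1 library changed the sign of the log2 fold change for 12 of the 14, all but mt-Atp8 and mt-Cytb. A p that misses the threshold does not show that the levels were equal.

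The rRNAs form the mitochondrial ribosome, with mt-Rnr1 in the small and mt-Rnr2 in the large subunit. The level of mt-Rnr2 (ENSMUSG00000064339, bases 1094 to 2675) was 2821 and 1765 CPM in Ctrl against 1141 and 3804 in dKO. It was lowest and highest in the dKO libraries, and its log2 fold change was 0.11 (SE 0.48, edgeR adjusted p = 0.971). The level of mt-Rnr1 (ENSMUSG00000064337, bases 70 to 1024) was 85.2 and 212 CPM in Ctrl against 57.5 and 179.7 in dKO. Here the first replicate of each group was low and the second was high, and the log2 fold change was -0.33 (SE 0.54, edgeR adjusted p = 0.898). The rRNAs did not move together within Ctrl: mt-Rnr1 counts were 3.02, 12.0, 5.04 and 4.72% of those of mt-Rnr2, so that Ctrl 2 stood above the other 3 libraries. On the TPM scale, which divides by gene length so that levels of different genes can be compared, mt-Rnr2 was at 2641 ± 742 in Ctrl and 2821 ± 1939.6 in dKO and mt-Rnr1 at 348 ± 223 in Ctrl and 271 ± 176 in dKO (SD, n = 2).

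Complex I, the NADH dehydrogenase that takes electrons into the respiratory chain, has 7 subunits encoded here. Their summed level was 2895, 3159.6, 2068 and 4035 CPM, lowest in dKO 1 and highest in dKO 2. Most of it came from mt-Nd1 (ENSMUSG00000064341, bases 2751 to 3707), at 1427 and 1522 CPM in Ctrl against 1025 and 1957 in dKO, and from mt-Nd4 (ENSMUSG00000064363, bases 10167 to 11544), at 1060.3 and 1193 CPM in Ctrl against 733 and 1438 in dKO. Both Ctrl libraries lay between the dKO libraries for each gene. Log2 fold changes were 0.02 (SE 0.27, edgeR adjusted p = 0.995) for mt-Nd1 and -0.05 (SE 0.28, edgeR adjusted p = 0.977) for mt-Nd4. A nuclear copy matches 876 of the 1378 bases of mt-Nd4 with 0 mismatches, so the level of mt-Nd4 is uncertain. The membrane subunit mt-Nd2 (ENSMUSG00000064345, bases 3914 to 4951) was at 212, 192, 126 and 224 CPM, with a log2 fold change of -0.20 (SE 0.25, edgeR adjusted p = 0.856). Again both Ctrl values lay between those of dKO.

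The distal membrane subunit mt-Nd5 (ENSMUSG00000064367, bases 11742 to 13565) was at 157 and 202 CPM in Ctrl against 148 and 338 in dKO. Only dKO 2 stood apart, above the other 3 libraries, and the log2 fold change was 0.43 (SE 0.34, edgeR adjusted p = 0.743). Its neighbour mt-Nd6 (ENSMUSG00000064368, bases 13552 to 14070) is the mitochondrial mRNA encoded on the opposite strand. It was at 37.7 and 48.4 CPM in Ctrl against 34.9 and 77.3 in dKO, with a log2 fold change of 0.38 (SE 0.35, edgeR adjusted p = 0.784). The pair kept nearly the same proportion in every library, with mt-Nd6 counts at 24.0, 23.9, 23.6 and 22.9% of mt-Nd5 counts. The strand setting of the counting is not given in the sources used here, and without strand, reads of mt-Nd6 and antisense reads over its locus cannot be told apart.

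The short complex I mRNAs had the fewest counts of the mRNAs. For mt-Nd3 (ENSMUSG00000064360, bases 9459 to 9806) the counts were 31, 34, 28 and 34, or 0.910, 1.02, 0.871 and 1.13 CPM, with a log2 fold change of 0.04 (SE 0.73, edgeR adjusted p = 0.994). For mt-Nd4l (ENSMUSG00000065947, bases 9877 to 10173) they were 7, 22, 2 and 5, too few to pass the filter of the main test. Both genes have a nuclear copy of at least 99% identity, so their low counts are uncertain as levels.

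Complex III passes electrons to cytochrome c, and its subunit here is mt-Cytb (ENSMUSG00000064370, bases 14145 to 15288). Its level was 1949 and 2590.1 CPM in Ctrl against 1293 and 2038 in dKO, or 2269.7 ± 453 in Ctrl and 1665 ± 527 in dKO (SD, n = 2). It was highest in Ctrl 2 and lowest in dKO 1, while Ctrl 1 and dKO 2 were close. The log2 fold change, -0.45 (SE 0.24, edgeR adjusted p = 0.584), had the smallest adjusted p of the 14 members tested.

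Complex IV, cytochrome c oxidase, hands the electrons to oxygen. Its catalytic subunit mt-Co1 (ENSMUSG00000064351, bases 5328 to 6872) had the most whole-number counts of all members, with 4280.5 and 3777 CPM in Ctrl against 2707 and 6988 in dKO. The Ctrl libraries were close together, dKO 1 lay below both and dKO 2 above both, and the log2 fold change was 0.27 (SE 0.37, edgeR adjusted p = 0.875). The copper-binding subunit mt-Co2 (ENSMUSG00000064354, bases 7013 to 7696) was at 206, 248, 149 and 301 CPM, with a log2 fold change of -0.01 (SE 0.30, edgeR adjusted p = 0.997). The third subunit, mt-Co3 (ENSMUSG00000064358, bases 8607 to 9390), was at 207, 164, 87.0 and 280.1 CPM, with a log2 fold change of -0.01 (SE 0.44, edgeR adjusted p = 0.998). All 3 genes were lowest in dKO 1 and highest in dKO 2. By TPM, mt-Co1 was at 4876 ± 221 in Ctrl and 5823 ± 3211 in dKO (SD, n = 2). For mt-Co2 it was 884 ± 145 in Ctrl and 881 ± 338 in dKO, and for mt-Co3 537 ± 82.7 in Ctrl and 540.5 ± 373 in dKO (SD, n = 2). By these values mt-Co1 lay several-fold above mt-Co2 and mt-Co3 in each group. However, nuclear copies match 681 of 684 bases of mt-Co2 and 783 of 784 of mt-Co3 with 0 mismatches. Neither copy has its identifier among the deposited genes, and how reads of such stretches were treated is not given in the sources used here. The values of mt-Co2 and mt-Co3 are therefore uncertain as levels.

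ATP synthase has 2 membrane subunits encoded on an overlapping transcript. For mt-Atp6 (ENSMUSG00000064357, bases 7927 to 8607), the proton channel subunit, the level was 37.1 and 17.3 CPM in Ctrl against 10.4 and 41.6 in dKO, with a log2 fold change of -0.07 (SE 0.59, edgeR adjusted p = 0.988). One library of each group was high and the other low. For mt-Atp8 (ENSMUSG00000064356, bases 7766 to 7969) the level was 18.8 and 25.4 CPM in Ctrl against 24.2 and 33.4 in dKO, with a log2 fold change of 0.38 (SE 0.26, edgeR adjusted p = 0.684). Here Ctrl 1 was the lowest library, and this was the only tested member of which dKO 1 was not the lowest. For both genes the whole-number counts differed widely from the RSEM expected counts, as given next. How reads of the overlap and of nuclear copies were assigned was not tested.

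**Figure D2:**
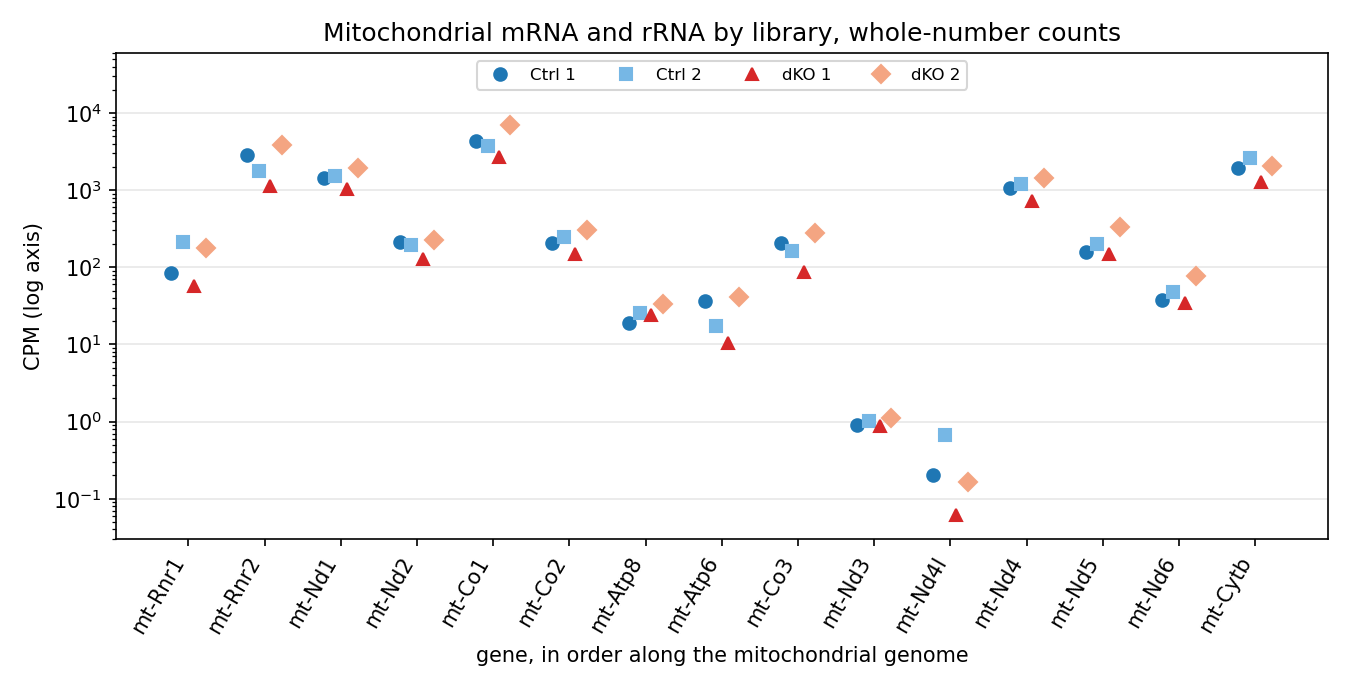
Points give the level of each mitochondrial mRNA and rRNA in CPM (y axis, log scale) in each of the 4 libraries, with genes in order along the mitochondrial genome (x axis). For most genes dKO 1 (triangles) is the lowest point and dKO 2 (diamonds) the highest, with the Ctrl libraries between them.

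The deposited whole-number counts and RSEM expected counts described the same libraries and differed by a common factor for most genes. RSEM shares reads among the loci they match by a likelihood model. The median ratio of whole-number count to expected count over genes with more than 50 expected counts was 2.05, 2.05, 2.07 and 2.07. If fragments were counted more than 1 time, the binomial intervals of the class shares are too narrow. Of the 15 mitochondrial mRNAs and rRNAs, 11 lay within the 5th to 95th percentile of other genes in every library. Of those 11, mt-Nd6 had ratios of 2.56, 2.51, 2.52 and 2.61, and the other 10 lay between 1.96 and 2.18. The remaining 4 were mt-Atp6, mt-Atp8, mt-Nd3 and mt-Nd4l. Of these, mt-Atp8, mt-Nd3 and mt-Nd4l had fewer than 50 expected counts themselves, where ratios spread more widely. Over other genes with 4 to 50 expected counts the 5th percentile was at 0 to 0.0432 and the 95th at 5.70 to 6.27, and both mt-Nd3 and mt-Nd4l lay between them in every library. Only mt-Atp8 and mt-Atp6 thus stood apart from genes of like expected count.

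The gap was largest in number of counts for mt-Atp6. Its whole-number counts were 1263, 575, 333 and 1256, whereas its expected counts were 64608, 86724, 45349 and 82604. The expected counts were thus 51.2, 151, 136 and 65.8 times the whole-number counts. Of the whole-number counts, the pseudogene Gm10925 held 17712, 22262, 12544 and 21856 counts, or 93.3, 97.5, 97.4 and 94.6% of the sum of both genes. Those sums, 18975, 22837, 12877 and 23112, still lay below the expected counts of mt-Atp6. By RSEM the same pseudogene held 1414, 1541, 1287 and 1615 expected counts. In GENCODE M21 the symbol Gm10925 stands for a transcript that matches 678 of the 681 bases of mt-Atp6 with 0 mismatches, but under another Ensembl identifier than in the deposited tables. By TPM, mt-Atp6 was the highest member, at 17835 ± 4645 in Ctrl and 16473 ± 5694 in dKO (SD, n = 2).

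For mt-Atp8 the gap ran the other way. Its whole-number counts were 639, 844, 779 and 1009 and its expected counts 9, 17, 4 and 18.7. Its effective length in the RSEM tables was 0 in all 4 libraries, and its TPM was listed at 0. For mt-Nd4l the expected counts were 29.0, 24.0, 18.0 and 47.5, and the identical copy Gm10222 was given the same 29.0, 24.0, 18.0 and 47.5. Whole-number counts of that pair were 7, 22, 2 and 5 for mt-Nd4l and 0, 4, 35 and 1 for Gm10222. The 294 aligned bases hold no difference by which a read could be assigned to a locus, so the levels of mt-Nd4l are uncertain.

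The choice of count moved no member across the threshold. With RSEM expected counts, 0 of the 14 members tested were called by edgeR, against 0.995% of genes. That set held mt-Nd4l and left out mt-Nd3, so it differs from the 14 tested by whole-number counts. With the counts of nuclear copies added to those of their members, 0 were called by either kind of count.

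**Figure D3:**
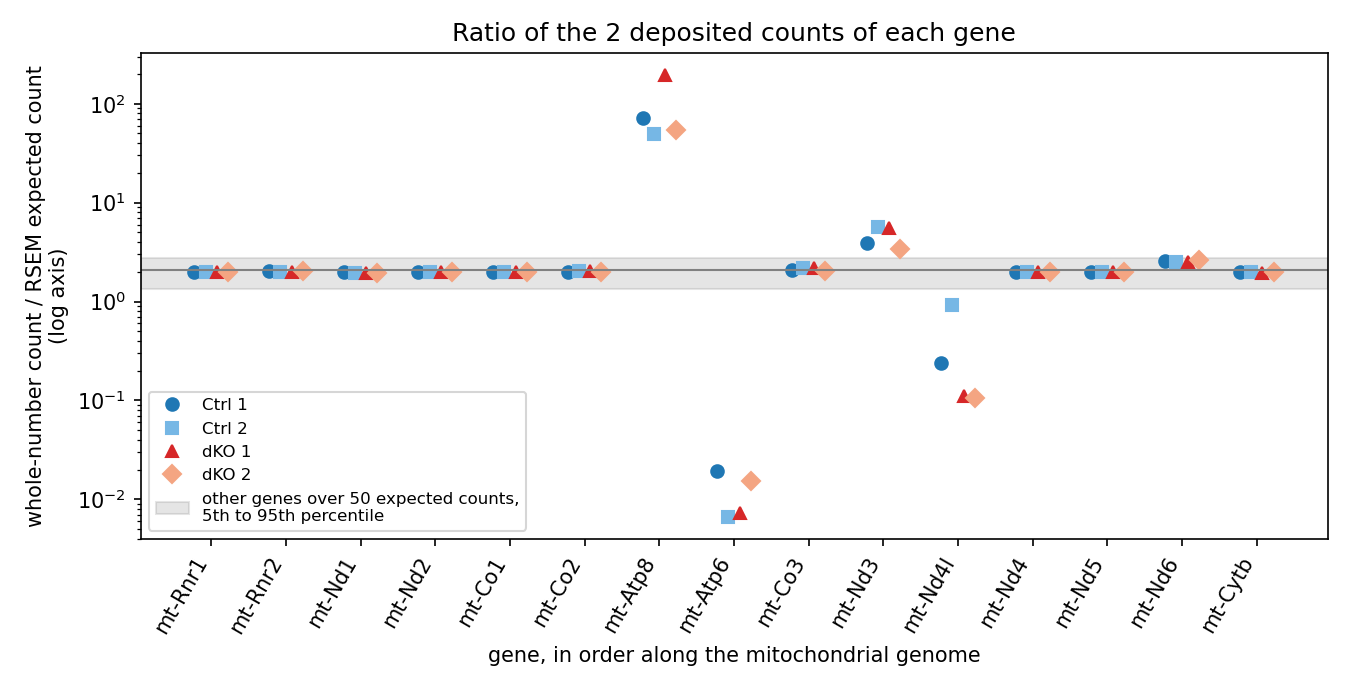
Points give the whole-number count divided by the RSEM expected count (y axis, log scale) for each mitochondrial mRNA and rRNA (x axis, in genome order) in each library, and the grey band spans the 5th to 95th percentile of other genes with more than 50 expected counts. Of the 15 genes, 11 lie in the band, mt-Atp6 and mt-Nd4l lie below it, and mt-Atp8 and mt-Nd3 lie above it, but mt-Atp8, mt-Nd3 and mt-Nd4l have fewer than 50 expected counts.

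The tRNAs, the smallest class, were almost unseen. Of the 22 tRNA genes, 14 are encoded on the same strand as most mRNAs and 8 on the opposite strand, and their annotated lengths run from 59 to 75 bases. Whole-number counts were 0 in all 4 libraries for 21 of them. The exception was mt-Tp (ENSMUSG00000064372, bases 15356 to 15422, opposite strand), the proline tRNA, with 3, 0, 0 and 1 counts. Its sequence is shown as the only tRNA with a count.
mt-Tp: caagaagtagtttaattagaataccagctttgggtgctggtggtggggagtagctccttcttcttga
In the RSEM tables all 22 had an effective length of 0 and an expected count of 0. A count of 0 allows up to 3 counts per library, or 0.0881 to 0.0993 CPM, for each tRNA gene. This limit covers counting error only. Whether RNAs this short, without a poly(A) tail to prime on, could enter these libraries was not tested. With 3 and 0 counts in Ctrl and 0 and 1 in dKO the class could not be compared between the groups (exact two-sided permutation p = 1).

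The dKO replicates differed in the same direction for every mitochondrial transcript tested. Summed mitochondrial mRNA was 2.16-fold higher in dKO 2 than in dKO 1 after TMM scaling, and summed rRNA 3.32-fold higher. In Ctrl, replicate 2 over replicate 1 was 1.04-fold for mRNA and 0.680-fold for rRNA. For all 14 tested members the level was higher in dKO 2 than in dKO 1, with log2 ratios from 0.37 to 2.00 and a median of 1.08. For 8 of the 14 the ratio was at least 2-fold, against 5.6% of 13403 tested genes with counts in all 4 libraries. The same ratio over the 2311 genes averaging 100 CPM or more had its 5th and 95th percentiles at -0.47 and 0.42, and 0.952% of them reached the members' median. No test was made, since each side is 1 library.

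By whole-number counts, the largest log2 ratios of dKO 2 over dKO 1 belonged to mt-Atp6 (2.00), mt-Rnr2 (1.74), mt-Co3 (1.69) and mt-Rnr1 (1.64). The smallest belonged to mt-Nd3 (0.37), mt-Atp8 (0.46) and mt-Cytb (0.66). In Ctrl the log2 ratios of replicate 2 over replicate 1 ran from -1.10 (mt-Atp6) to 1.32 (mt-Rnr1) around a median of 0.17, with 9 members above 0 and 5 below. The ratios of mt-Atp6 rest on whole-number counts that are a small part of its sum with Gm10925. With the counts of Gm10925 added, mt-Atp6 was at 0.93 for dKO 2 over dKO 1 and at 0.30 for Ctrl 2 over Ctrl 1. By RSEM expected counts, scaled to their library total, it was at 0.91 and 0.48, so its direction within Ctrl turned. By RSEM, all 14 members were again higher in dKO 2, with a median log2 ratio of 1.05, from 0.60 (mt-Cytb) to 2.27 (mt-Atp8, on 4 and 18.7 expected counts). Within Ctrl they ran from -0.64 (mt-Rnr2) to 1.35 (mt-Rnr1). By whole-number counts across the 4 libraries, dKO 1 was the lowest for 13 of the 14 tested members. Library dKO 2 was the highest for 12 of them, all but mt-Rnr1 and mt-Cytb, which were highest in Ctrl 2.

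Some other measures also differed between the dKO libraries, while others were close. From dKO 1 to dKO 2, summed neutrophil markers went from 1322 to 2163 CPM, erythroid markers from 296 to 541 CPM and T cell markers from 45.7 to 72.3 CPM. Stem and megakaryocyte markers went the other way, from 96.6 to 90.3 CPM. Reads outside annotated genes were close, at 23.8% and 24.3% of counted reads in these libraries, beside 18.1% and 21.5% in Ctrl. Summed NK markers were close, at 10989 and 11176 CPM. In Ctrl, where summed mitochondrial mRNA differed 1.04-fold, neutrophil markers went from 2144 to 2720.3 CPM and erythroid markers from 404 to 585 CPM between the replicates. The neutrophil sum was carried by Ngp and Ltf: within Ctrl 6 of the 10 markers were lower in Ctrl 2, among them Mpo at 348 and 104 CPM, while within dKO 8 of the 10 were higher in dKO 2. Of the 8 erythroid markers, 7 were higher in Ctrl 2 and 8 in dKO 2, and of the 7 T cell markers 3 and 6. The part of these other cells in the difference of mitochondrial RNA within dKO was not tested.

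**Figure D4:**
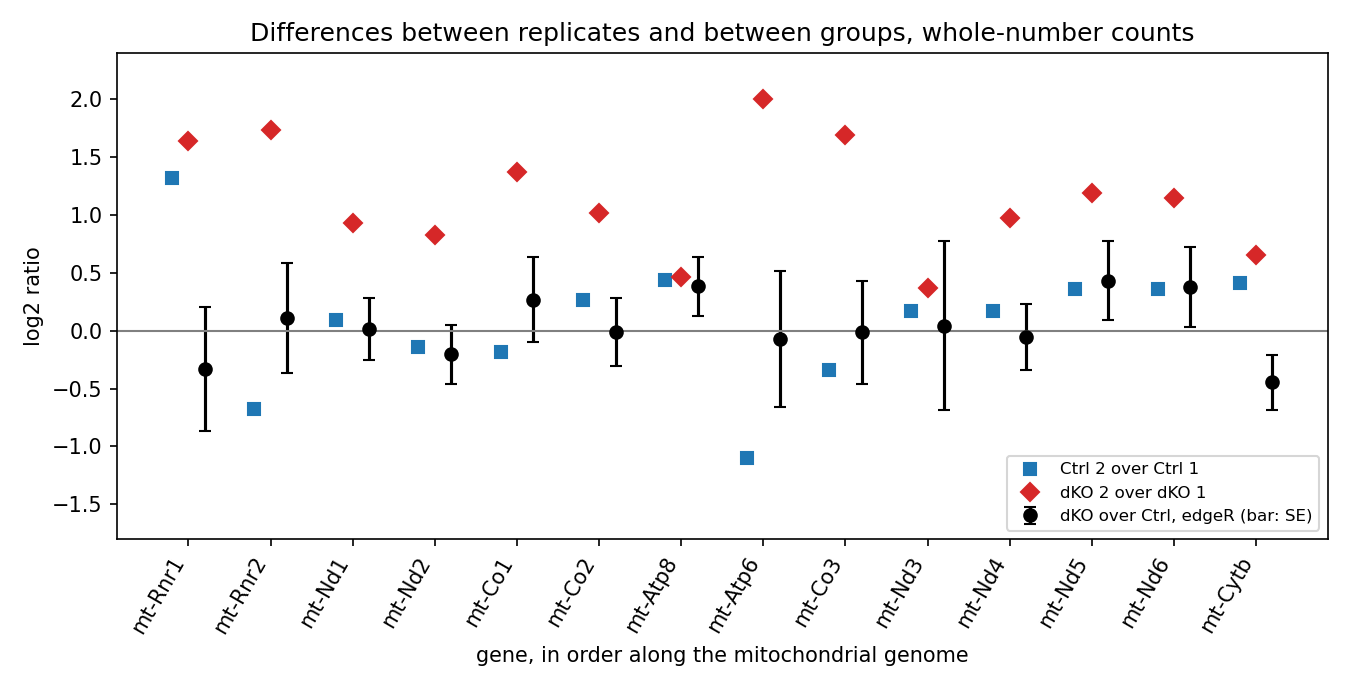
For each of the 14 tested members (x axis, in genome order) squares give the log2 ratio of Ctrl 2 over Ctrl 1, diamonds that of dKO 2 over dKO 1, and circles the log2 fold change of dKO over Ctrl with its SE as a bar. All 14 diamonds lie above 0, from 0.37 to 2.00, while the circles lie between -0.45 and 0.43.

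Within the mitochondrial mRNA pool, the 4 most counted mRNAs, mt-Co1, mt-Cytb, mt-Nd1 and mt-Nd4, kept this order in all 4 libraries. As a percentage of mitochondrial mRNA counts, mt-Co1 was at 44.6, 37.8, 42.7 and 50.9, mt-Cytb at 20.3, 25.9, 20.4 and 14.9, mt-Nd1 at 14.9, 15.2, 16.2 and 14.3 and mt-Nd4 at 11.1, 12.0, 11.6 and 10.5. The shares of mt-Nd1 and mt-Nd4 varied least, and in dKO 2 mt-Co1 was at its highest share and mt-Cytb at its lowest. Set against each other, mt-Cytb counts were 45.5, 68.6, 47.7 and 29.2% of those of mt-Co1.

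On this scale, which removes the difference in total, the groups did not overlap for 3 of the 13 mRNAs. For mt-Nd5 the shares were 1.64, 2.03, 2.33 and 2.46% and for mt-Nd6 0.393, 0.485, 0.550 and 0.564%, higher in both dKO libraries. Over all genes tested, counts taken as a share of mitochondrial mRNA were higher in both dKO libraries for 9.7% and lower for 6.47%. By CPM these percentages were 21.7% and 19.9%. The share-based percentages are a poor yardstick for the members. Relative to all gene counts, the denominator was lowest in dKO 1 and highest in dKO 2. This makes the groups overlap for genes that do not vary with it. The third mRNA, mt-Nd4l, was lower in dKO but rests on 2 to 22 counts per library. The exact two-sided permutation p was 0.333 for each of the 3, the smallest this design allows. By RSEM expected counts mt-Nd5 and mt-Nd6 were again higher in both dKO libraries, at 1.18, 1.34, 1.62 and 1.77% and 0.220, 0.253, 0.301 and 0.308%. The mRNA lower in dKO by that count was mt-Cytb, at 14.8, 17.3, 14.3 and 10.7%. Of all genes tested, 9.33% were higher and 6.49% lower on that scale, with the same limit. By RSEM the largest shares were those of mt-Co1, at 32.1, 25.0, 29.6 and 36.8%, and mt-Atp6, at 28.3, 34.3, 30.8 and 28.4%, so the order of the most abundant mRNAs depended on the kind of count.

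**Figure D5:**
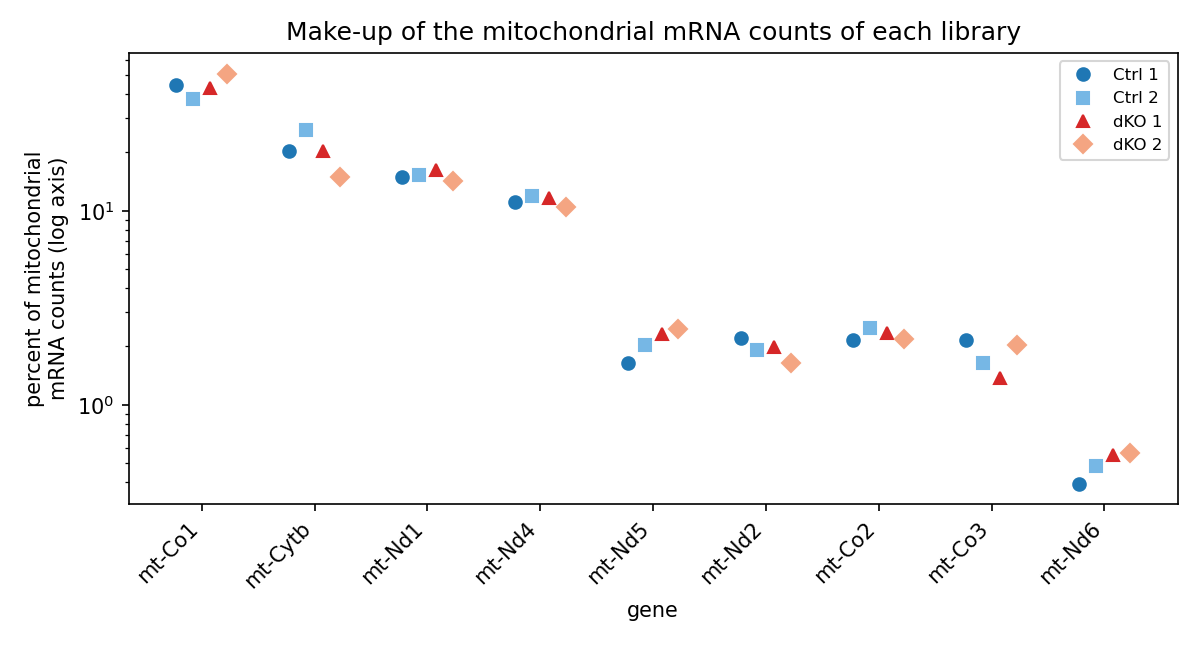
Points give each gene's percentage of the mitochondrial mRNA counts (y axis, log scale) in each library, for the 9 mRNAs with the most counts (x axis). The points of mt-Co1 lie between 37.8% and 50.9%, and for mt-Nd5 and mt-Nd6 both dKO points lie above both Ctrl points.

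The nuclear genes that make and process mitochondrial RNA were given by a list of the polymerase, its factors and the processing, polyadenylation and decay enzymes. Of 30 such genes in the tables, 28 were tested, and edgeR called 0 higher and 0 lower, against 0.611% of all genes. At an unadjusted p under 0.05, 4 of the 28 passed, against 10.6% of all genes. DESeq2 and limma-voom called 0, against 2.86% and 0.885%. Log2 fold changes were above 0 for 12 and below 0 for 16, with a median of -0.03 beside 0.01 over all genes. The smallest p was that of Rg9mtd1, an older symbol of Trmt10c, a subunit of the enzyme that cuts the 5′ ends of mitochondrial tRNAs. It was at 106, 95.1, 154 and 136 CPM, with a log2 fold change of 0.53 (SE 0.16, edgeR adjusted p = 0.280). Next was Lrpprc, which binds and stabilises mitochondrial mRNAs, at 131, 110.5, 88.2 and 81.4 CPM and -0.51 (SE 0.17, edgeR adjusted p = 0.322). The libraries of each group were close for both genes and the groups did not overlap, but neither passed. Among all genes tested, 21.7% were higher in both dKO libraries and 19.9% lower. Polrmt, the mitochondrial RNA polymerase, and Tfam, which packages and bends the promoter DNA, were chosen for their role after their values were seen. Their log2 fold changes were -0.12 (SE 0.19, edgeR adjusted p = 0.891) and -0.13 (SE 0.19, edgeR adjusted p = 0.878). In dKO 1 and dKO 2 Tfam was at 104 and 123 CPM and Polrmt at 72.4 and 56.6 CPM.

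Genes that copy and maintain mitochondrial DNA gave 0 calls of 16 by edgeR and limma-voom, with 4 at an unadjusted p under 0.05 and 11 log2 fold changes above 0. Over all genes 0.611% were called by edgeR, 0.885% by limma-voom and 2.86% by DESeq2, and 10.6% had an unadjusted p under 0.05. DESeq2 called 1, Lonp1, higher. This protease of the mitochondrial matrix was at 4.96, 4.58, 11.5 and 10.9 CPM, with a log2 fold change of 1.23 (SE 0.29, edgeR adjusted p = 0.156). The nuclease-helicase gene Dna2 was at 10.1, 7.71, 3.17 and 4.67 CPM and -1.18 (SE 0.35, edgeR adjusted p = 0.268). Both genes had groups that did not overlap, while among all genes tested 21.7% were higher in both dKO libraries and 19.9% lower.

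The nuclear partners of the mitochondrially encoded subunits gave no call either. Of 71 tested nuclear genes of complexes I, III and IV and of ATP synthase, 0 were called by edgeR, DESeq2 or limma-voom, and 1 had an unadjusted p under 0.05, against 0.611%, 2.86%, 0.885% and 10.6% of all genes in the same order. Log2 fold changes were above 0 for 41 and below 0 for 30, with a median of 0.02. The gene with the unadjusted p under 0.05 was Cox5b of complex IV, at 17.4, 12.8, 27.4 and 26.1 CPM and 0.82 (SE 0.24, edgeR adjusted p = 0.261). Nuclear complex I genes summed to 1351, 1214, 1165 and 1359.8 CPM, nuclear complex III genes to 1011, 1006, 889 and 885 CPM, nuclear complex IV genes to 736, 577, 627 and 999 CPM and nuclear ATP synthase genes to 3449, 2780.1, 2432 and 2998 CPM. The mitochondrially encoded subunits of complex III were at 1949, 2590.1, 1293 and 2038 CPM and those of complex IV at 4693, 4189, 2943 and 7569 CPM. The mitochondrial sums of complexes I, III and IV were higher in dKO 2 than in dKO 1. The nuclear sums of complex I, complex IV and ATP synthase were also higher in dKO 2, and that of complex III was close in the pair. The largest part of the rise in the nuclear complex IV sum came from a single gene that the list counts with complex IV. This was Cox7a2l, at 335 CPM in dKO 1 and 620 CPM in dKO 2.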

How the data were processed

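Members were all genes with a symbol beginning with mt-; they, the gene lists and the naming rule were chosen with earlier results of these data known. All mRNAs and rRNAs were named, and tRNAs with 10 or more counts, of which there was none, so that mt-Tp was named after its values were seen. From nuclear lists the genes called or else up to 2 with the smallest p were named. The submitters' processing notes list TopHat2 2.1.1, HTSeq 0.6.1, RSEM 1.3.0, FastQC 0.11.5, Trimmomatic 0.36 and the build mm9, without their roles. Parameters, annotation and strand setting: not given in the sources used here. Whole-number counts of each gene were deposited by the authors and, per the file headers, RSEM tables with expected counts, TPM, FPKM and lengths.

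Rows that name no gene (18.1% to 24.3% outside genes, 2.20% to 2.34% ambiguous) stayed out. Counts of all genes were tested with edgeR 4.0.16 (quasi-likelihood, robust, TMM, minimum count 10) in R 4.3.3, with Benjamini-Hochberg adjustment over 13904 genes and a threshold of 0.05. CPM are counts relative to the TMM-scaled library total, and fold changes are log2 of dKO over Ctrl. SEs were obtained from the fold change and the F statistic (log2 change over the root of F). Expected counts were rounded before testing. TPM served only to compare levels between genes and FPKM was not used. Class and pool shares were compared by exact two-sided permutation over libraries (scipy 1.17.1). Nuclear copies were found with BLAST+ 2.17.0 among GENCODE M21 transcripts. DESeq2 1.42.0 and limma 3.58.1 were alternatives. The edgeR procedure was tested on simulated data.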

Additional observations from a re-analysis of the deposited data

How the results depend on the processing

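No member passed the threshold in any of the 17 settings, which covered edgeR with other scalings and filters, DESeq2, limma-voom, RSEM expected counts, the replicate block, addition of nuclear copies (chosen after seeing the data) and each library left out. Over all genes the calls numbered 85 in the main setting, 398 by DESeq2, 559 with no filter and 123 by limma-voom, by RSEM counts and with a minimum count of 30, and 73 to 187 with 1 library left out (187 without Ctrl 2). Of 222 alternative log2 fold changes of members, 30 changed sign, none of them past a threshold. By limma-voom, mt-Rnr2 was at -0.10 and mt-Nd1 at -0.0588. With RSEM counts, mt-Co2 was at 0.0159, mt-Co3 at 0.0494 and mt-Atp8 at -0.0236, the same to these digits with nuclear copies added. With a replicate block, mt-Rnr2 was at -0.0989 and mt-Nd1 at -0.0573. Deviations of same-numbered libraries from their group means had r = -0.05 across genes. With 2 libraries per group this cannot decide whether same-numbered libraries were paired, and the labels do not say. Leaving out 1 library moved the log2 fold changes over ranges of -1.37 to 0.48 for mt-Rnr1, -1.01 to 0.73 for mt-Rnr2, -0.53 to 0.41 for mt-Nd1, -0.68 to 0.15 for mt-Nd2, -0.58 to 0.79 for mt-Co1, -0.61 to 0.41 for mt-Co2, -1.40 to 0.61 for mt-Atp6, -1.09 to 0.60 for mt-Co3, -0.15 to 0.22 for mt-Nd3, -0.62 to 0.35 for mt-Nd4, -0.29 to 0.91 for mt-Nd5 and -0.31 to 0.84 for mt-Nd6. The difference in mRNA share was -0.0105 percentage points with all counted reads as denominator and -0.321 to 0.403 with 1 library left out. For rRNA share that range was -0.119 to 0.157, and for tRNA share -6.99e-06 to 1.65e-06. The log2 ratio of Ctrl 2 over Ctrl 1 in mRNA was 0.06, and 0.21 by RSEM. The cause was not tested; with 1 library left out a group of 1 is assumed to vary like the other. In the main setting mt-Nd4l and the tRNAs had too few counts to be tested. With no count filter the number of members tested was 16.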
